A study of Homo sapiens with 6 samples.

Results

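The genes described here are 41 genes of the endoplasmic reticulum (ER) chaperone system and the unfolded protein response (UPR), followed in U2OS cells with and without knockdown of LSD1. They were chosen by name, as a list of ER chaperones, folding enzymes, UPR sensors and degradation factors. The rule uses no value of these libraries, but the list was drawn up with earlier results of these data known, so it is not independent of them. Of the 41 genes, 39 had a row among the 15585 genes of the count table, 36 under the listed symbol and 3 (ERO1A, ERO1B and SELENOK) through a RefSeq synonym. The low-count filter kept 37 of them among 11844 tested genes, and each of these 37 had at least 175 reads in every library. ATF6B, a relative of ATF6, and DERL3, a Derlin of the degradation machinery, had no row and were not analysed here. HYOU1, an ER chaperone that helps HSPA5 to exchange its nucleotide, had at most 2 reads in a library, and ERO1B, an oxidase of the ER, had 1 read in each library, so neither was tested.

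U2OS is a human osteosarcoma cell line. Total RNA was sequenced from 3 libraries of cells that had received control siRNA (siCTR) and 3 libraries of cells that had received siRNA against LSD1 (siLSD1) for 48 h. LSD1, encoded by KDM1A, removes methyl groups from lysine 4 of histone H3. The study made these libraries to ask whether the loss of LSD1 alters transcription of DNA replication genes, its methods list more than 1 siRNA against LSD1, and the sources used here do not say which of them was used for these libraries. Both groups are the same line, and the labels name no drug or agent that stresses the ER in either.

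The ER is where secreted and membrane proteins fold, with the help of chaperones, sugar-binding lectins and enzymes that form disulfide bonds. When unfolded protein builds up, the sensors IRE1 (ERN1), ATF6 and PERK (EIF2AK3) start the UPR, in which the transcription factors XBP1, ATF6 and ATF4 raise the transcription of chaperones and of the machinery of ER-associated degradation (ERAD). HSPA5, also known as BiP, is the main Hsp70 of the ER and the usual marker gene of this response.

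The regulatory sequences through which ATF6 and XBP1 act were read in the RefSeq promoter windows (GRCh38.p14), which run from 250 bases before to 50 bases after each start site and were given for 38 of the 41 genes. Exact matches on either strand were searched for the ER stress element ERSE (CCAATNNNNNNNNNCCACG), for ERSE-II (ATTGGNCCACG) and for the UPR element UPRE (TGACGTGG). The letters CCACG are common to all 3 motifs, on the other strand in UPRE. ERSE was found in 9 of 38 genes (XBP1, HSPA5, HSP90B1, CRELD2, CALR, CANX, PDIA6, ERO1B and SERP1, 23.7%), against 0.0916% of all 27305 genes with a window, and ERSE-II in HYOU1, SDF2L1 and HERPUD1 (7.89%), against 0.0696% of these genes. UPRE, a shorter motif, was found in HYOU1, DNAJC10 and VCP (7.89%), against 0.927% of them, and that of HYOU1 shares bases with the more distal of its ERSE-II matches. A match is a description of the letters and not a proof of binding. Matches in 10 of these genes are shown, because they show the letters that genes of different roles share, with the fixed bases of the motif in capitals and 5 bases on either side, on the strand on which the motif reads 5′ to 3′. They lie at chr9:125241386-125241414 (minus strand) for HSPA5, chr12:103930211-103930239 (plus) and chr12:103930316-103930344 (minus) for HSP90B1, chr22:28800598-28800626 (minus) for XBP1, chr19:12938379-12938407 (minus) for CALR, chr22:49918549-49918577 (minus) for CRELD2, chr3:150546705-150546733 (plus) for SERP1, chr16:56932020-56932040 (plus) for HERPUD1, chr22:21642109-21642129 (minus) for SDF2L1, chr11:119057269-119057289 (plus) for HYOU1 and chr2:182716127-182716144 (minus) for DNAJC10.
HSPA5 ERSE: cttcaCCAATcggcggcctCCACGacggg
HSP90B1 ERSE, distal: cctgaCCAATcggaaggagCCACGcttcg
HSP90B1 ERSE, proximal: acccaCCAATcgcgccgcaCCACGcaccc
XBP1 ERSE: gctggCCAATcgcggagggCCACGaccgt
CALR ERSE: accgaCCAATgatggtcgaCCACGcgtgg
CRELD2 ERSE: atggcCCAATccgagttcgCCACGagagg
SERP1 ERSE: aaacaCCAATtcgctgtctCCACGcatga
HERPUD1 ERSE-II: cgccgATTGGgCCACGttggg
SDF2L1 ERSE-II: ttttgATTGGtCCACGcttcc
HYOU1 ERSE-II, proximal: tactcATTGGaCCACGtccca
DNAJC10 UPRE: taggtTGACGTGGcggtg

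The HSPA5 promoter is given at greater length, at chr9:125241383-125241593 (minus strand, 211 bases, GRCh38.p14), because HSPA5 is the marker gene of the response. The capitals mark the fixed bases of its 1 exact ERSE, which starts 66 bases before the RefSeq start site, and other CCAAT letters can be read further upstream in lower case.
HSPA5 promoter: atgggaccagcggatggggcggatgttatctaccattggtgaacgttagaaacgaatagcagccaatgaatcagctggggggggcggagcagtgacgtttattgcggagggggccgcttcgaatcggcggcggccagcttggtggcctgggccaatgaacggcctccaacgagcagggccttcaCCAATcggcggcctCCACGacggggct

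KDM1A had 6140, 6493 and 6573 reads across siCTR against 1110, 1198 and 1246 across siLSD1. Its log2 fold change was -2.44 (SE 0.11), at an adjusted p of 2.27e-07 (edgeR, quasi-likelihood test, p-values adjusted by the method of Benjamini and Hochberg), so the knockdown was seen in every siLSD1 library. Libraries held between 12513511 and 13561344 counted reads. The labels do not say whether the 3 libraries of a group came from separate cultures, and the p-values below measure only the spread between these libraries. The replicates of a group differed by more than sampling noise (chi-square per degree of freedom 6.46 to 29.1). Measured from the mean of each gene over both groups, siCTR replicate 2 lay farthest off. Its median absolute deviation over all genes was 0.19 on the log2 scale, against 0.0892 to 0.162 in the other 5 libraries. Of the markers of a mesenchymal or osteoblastic line, VIM (9487 to 11615 reads), ALPL (4162 to 5411) and COL1A1 (122 to 200) were detected, whereas RUNX2 and SPARC had at most 4 and 3 reads and COL1A2 had no row. Of 3 endothelial markers, PECAM1 had at most 3 reads, and CDH5 and VWF were low, with a summed level of the list of 0.605 to 1.04 FPKM in siCTR and 1.70 FPKM at both ends of the range in siLSD1. The summed level of 4 epithelial markers was 2.36 to 2.94 FPKM in siCTR and 3.38 to 3.5 FPKM in siLSD1, with KRT5 at 0 to 1 reads and KRT14 at 0 to 5. EPCAM had 29, 41 and 31 reads across siCTR against 28, 35 and 34 across siLSD1, with overlapping groups and a log2 fold change of -0.06 (SE 0.27). Its mean level was 1.28 FPKM in siCTR and 1.23 FPKM in siLSD1, and that of CDH1 was 1.24 and 2.11 FPKM, so the higher sum rested on CDH1. CDH1, the E-cadherin gene, had 95, 80 and 66 reads across siCTR against 154, 117 and 143 across siLSD1, without overlap, and a log2 fold change of 0.77 (SE 0.19, adjusted p = 0.070 in edgeR). It was called by DESeq2 (adjusted p = 0.029), by edgeR without a filter (0.032) and by edgeR with a correction for GC content and length (0.027), and was not called with any 1 library left out (adjusted p 0.0541 to 0.253). The blood marker PTPRC had at most 1 read in any library. The part of these markers in the results was not tested. In bulk RNA, fewer cells of a type and less RNA per cell cannot be told apart.

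The differences of the ER chaperone and UPR genes between siLSD1 and siCTR were small. None of the 37 tested genes reached an adjusted p under 0.05 in edgeR, where 1.44% of all tested genes did (171 of 11844, 127 higher and 44 lower), and the smallest adjusted p among the 37 genes was 0.139, of EDEM1. At an unadjusted p under 0.05 there were 10 of 37 genes (27.0%), against 14% of all tested genes. Of these, 7 were higher in siLSD1 (CREB3L2, DNAJC10, ERO1A, CANX, CALR, ATF6 and P4HB), where 7.48% of all tested genes were higher at this threshold, and 3 were lower (EDEM1, WFS1 and DNAJB11), where 6.55% of all were lower. DESeq2 and limma-voom likewise called 0 of the 37 genes after adjustment, and each had 7 higher and 3 lower at an unadjusted p under 0.05, where 834 of all genes were higher and 726 lower in DESeq2 and 911 and 782 in limma-voom. With a correction for GC content and transcript length, edgeR called 6 of the 37, which are named further on, and 8.26% of all genes. In the GENCODE release 44 annotation of GRCh38, the 3 genes with the smallest p lie at chr3:5187646-5219958 (EDEM1, plus strand), chr4:6269849-6303265 (WFS1, plus) and chr7:137874979-138002086 (CREB3L2, minus), and HSPA5 at chr9:125234853-125241382 (minus). The fold changes of all 37 genes lay between -0.43 and 0.39 on the log2 scale, and 25 of the 37 had a 95% interval that lay wholly within ±0.5. The median half-width of that interval was 0.26 for these genes and 0.31 for all tested genes.

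**Figure D1:**
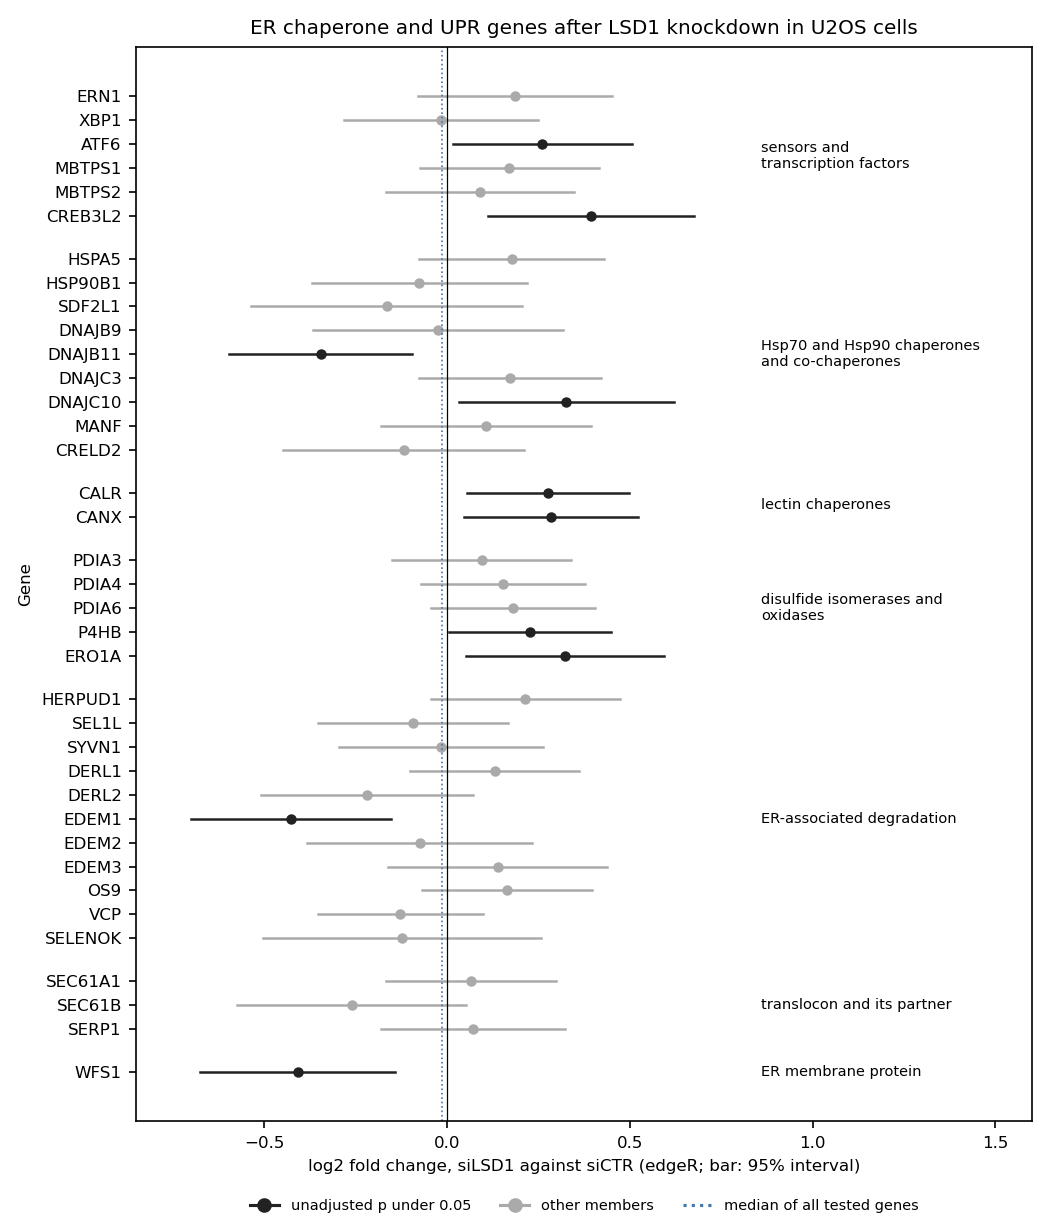
Log2 fold change (x axis, siLSD1 against siCTR, from edgeR) of each of the 37 tested ER chaperone and UPR genes (y axis, grouped by role), with bars for the 95% interval, black where the unadjusted p was under 0.05 and grey elsewhere. All points lie between -0.43 (EDEM1) and 0.39 (CREB3L2), and the dotted line marks the median of all tested genes, -0.01.

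The median log2 fold change of the 37 genes was 0.09, against -0.01 over all tested genes, and 22 of the genes were higher and 15 lower in siLSD1. On the CPM scale, which corrects for depth, the siLSD1 libraries all lay above the siCTR libraries for 12 genes and all below for 3. These 15 genes are 40.5% of the 37, and the groups did not overlap for 21.4% of all tested genes. The reads of the set made up 0.778%, 0.834% and 0.800% of all counted reads across siCTR against 0.848%, 0.870% and 0.890% across siLSD1, that is 0.804% ± 0.0280 (SD, n = 3) and 0.869% ± 0.0210 (SD, n = 3). The lowest siLSD1 library lay above the highest siCTR library in this share. Abundant genes weigh most in it, so it does not describe the set gene by gene. In mean CPM, HSPA5 was at 1477 in siCTR and 1669 in siLSD1, CALR at 765 and 926, and P4HB at 618 and 723. HSP90B1, at 1110 and 1053, went the other way. The counts at the unadjusted threshold depended on single libraries. With siCTR replicate 1 or siLSD1 replicate 2 left out, 1 of the 37 genes was higher at an unadjusted p under 0.05, where 924 and 607 of all genes were, against 886 with all libraries. With siCTR replicate 3 or siLSD1 replicate 3 left out, 3 of the 37 were higher, where 732 and 924 of all genes were. Without siCTR replicate 2, the library farthest from the mean of both groups, there were 9 higher and 3 lower, where 840 of all genes were higher and 683 lower.

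Per length of gene, CALR (401 ± 14.8 FPKM, SD, n = 3), HSP90B1 (386 ± 37.5 FPKM) and HSPA5 (377 ± 38.4 FPKM) were the most abundant in siCTR and did not differ from each other beyond their spread. P4HB followed at 237 ± 8.03 FPKM and PDIA3 at 152 ± 15.4 FPKM. At the other end, the IRE1 gene ERN1 was at 3.32 ± 0.342 FPKM, DNAJC10 at 4.13 ± 0.241 FPKM and DNAJB9 at 5.52 ± 0.689 FPKM. In mean CPM, which is not divided by length, DNAJC10 was at 86.9 in siCTR, ERN1 at 32.6 and DNAJB9 at 15.0. The low place of DNAJC10 thus rests on the gene length used in the FPKM. CANX, the membrane-bound relative of CALR, was at 15.6 ± 0.981 FPKM.

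**Figure D2:**
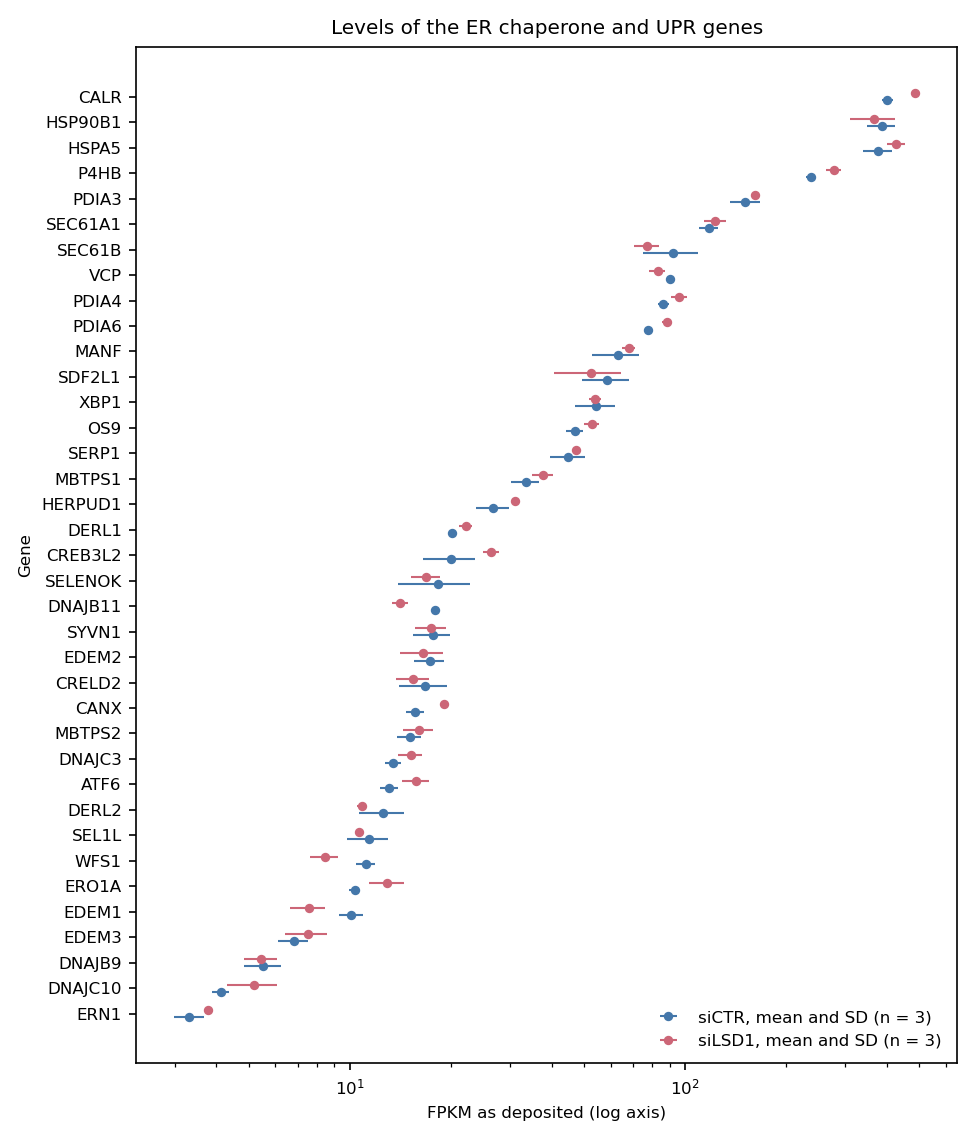
Level of each of the 37 tested genes (y axis) as deposited FPKM (x axis, log scale), with blue points for siCTR, red points for siLSD1 and bars for the SD of 3 libraries. The 5 highest genes in siCTR were CALR, HSP90B1, HSPA5, P4HB and PDIA3, and ERN1 was the lowest.

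Among the sensors and transcription factors, 5 of 6 tested genes were higher and 1 lower in siLSD1, 2 of them at an unadjusted p under 0.05 (14% of all tested genes), with a median log2 fold change of 0.18. CREB3L2, an ER-anchored transcription factor related to ATF6, had 2453, 1766 and 2470 reads across siCTR against 3125, 2815 and 2855 across siLSD1. All siLSD1 libraries were higher than all siCTR libraries, of which replicate 2 was the lowest. The log2 fold change of CREB3L2 was 0.39 (SE 0.13, adjusted p = 0.185 in edgeR). ATF6, the sensor that is cut in the Golgi to release a transcription factor, had 1327, 1195 and 1346 reads across siCTR against 1479, 1402 and 1769 across siLSD1, again without overlap, with siLSD1 replicate 3 the highest. Its log2 fold change was 0.26 (SE 0.11, adjusted p = 0.318 in edgeR). ERN1, the kinase and RNase that splices the XBP1 mRNA, had 429, 376 and 476 reads across siCTR against 488, 453 and 519 across siLSD1. After correction for depth the groups of ERN1 did not overlap, and its log2 fold change was 0.19 (SE 0.12, adjusted p = 0.522 in edgeR). XBP1 had 1346, 1666 and 1346 reads across siCTR against 1484, 1419 and 1417 across siLSD1, with siCTR replicate 2 as the highest of all libraries. Its groups overlapped, the log2 fold change was -0.02 (SE 0.12, adjusted p = 0.966 in edgeR), and counts per gene do not separate its spliced form. MBTPS1 and MBTPS2, the proteases that cut ATF6, had log2 fold changes of 0.17 and 0.09, with adjusted p-values of 0.525 and 0.771 in edgeR.

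**Figure D3:**
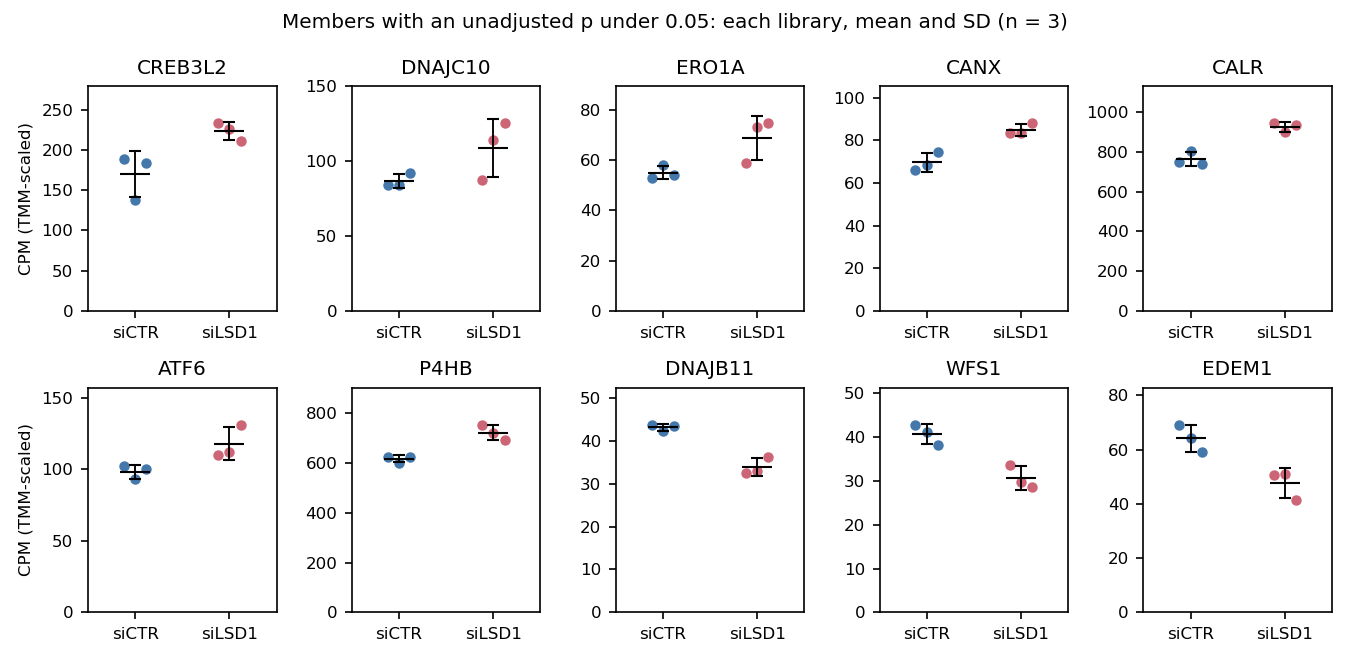
Depth-scaled level in CPM (y axis, from 0) of the 10 genes with an unadjusted p under 0.05 in each of the 6 libraries (points), with the mean and the SD of 3 libraries per group. The siCTR and siLSD1 points do not overlap for 9 of the genes, and for DNAJC10 the lowest siLSD1 library falls among the siCTR libraries.

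Of the Hsp70 and Hsp90 chaperones and their co-chaperones, 4 of 9 tested genes were higher and 5 lower, with a median log2 fold change of -0.02. HSPA5 had 16994, 21127 and 19870 reads across siCTR against 20819, 21012 and 23880 across siLSD1. The groups overlapped, since siCTR replicate 2 was above siLSD1 replicate 1, and the log2 fold change was 0.18 (95% interval -0.08 to 0.43, adjusted p = 0.525 in edgeR). The upper end of that interval is a 1.35-fold higher level of this marker gene. HSP90B1, the Hsp90 of the ER, had 12793, 15752 and 15019 reads across siCTR against 11834, 13103 and 16532 across siLSD1. By reads, the lowest and the highest library were both siLSD1 libraries, and the log2 fold change was -0.08 (SE 0.14, adjusted p = 0.836 in edgeR). SDF2L1, which works with HSPA5 and its J-domain partners, had 679, 749 and 562 reads across siCTR against 722, 596 and 463 across siLSD1. These groups overlapped, with a log2 fold change of -0.16 (SE 0.17, adjusted p = 0.699 in edgeR). DNAJB9, a J-domain co-chaperone of HSPA5 and a known target of XBP1, had 190, 221 and 178 reads across siCTR against 181, 175 and 226 across siLSD1, with overlap and a log2 fold change of -0.02 (SE 0.16, adjusted p = 0.961 in edgeR).

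A pair of J-domain co-chaperones of HSPA5 lay in opposite directions at the unadjusted threshold, which 2 of the 9 tested genes of this role passed, against 14% of all tested genes. DNAJB11, which delivers unfolded proteins to HSPA5, had 567, 543 and 583 reads across siCTR against 435, 412 and 489 across siLSD1. Every siLSD1 library was below every siCTR library, and the log2 fold change was -0.35 (SE 0.12, adjusted p = 0.189 in edgeR). DNAJC10, which also reduces disulfide bonds of proteins bound for degradation, had 1094, 1079 and 1244 reads across siCTR against 1175, 1422 and 1690 across siLSD1. Its siLSD1 replicate 1 lay among the siCTR libraries, and the log2 fold change was 0.33 (SE 0.14, adjusted p = 0.297 in edgeR). DNAJC3, an inhibitor of PERK signalling, MANF, a secreted ER stress protein, and CRELD2, another, had log2 fold changes of 0.17, 0.11 and -0.12, with overlapping groups. HYOU1 had 0, 0 and 1 reads across siCTR against 2, 2 and 0 across siLSD1, below the floor of 3 counts per library, and no fold change is given. The annotation behind the counts and the handling of reads with several matches are not given in the sources used here, so this count does not show that HYOU1 is silent in U2OS cells.

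Both lectin chaperones, which bind sugar chains of newly made glycoproteins, were higher in siLSD1 at the unadjusted threshold, as were 7.48% of all tested genes. CALR had 9713, 10362 and 9964 reads across siCTR against 12668, 11219 and 12610 across siLSD1. The groups did not overlap, and the log2 fold change was 0.28 (SE 0.10, adjusted p = 0.240 in edgeR). CANX had 858, 878 and 1003 reads across siCTR against 1118, 1039 and 1186 across siLSD1, again without overlap (as for 21.4% of all tested genes), and a log2 fold change of 0.28 (SE 0.11, adjusted p = 0.259 in edgeR). As a ratio, CALR in siLSD1 was 1.21 times its siCTR level, with a 95% interval of 1.04 to 1.41.

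All 5 tested disulfide isomerases and oxidases had a log2 fold change above 0, with a median of 0.18, and the groups did not overlap for 4 of them, as for 21.4% of all tested genes. P4HB, the founding protein disulfide isomerase, had 8142, 7735 and 8407 reads across siCTR against 10122, 8974 and 9377 across siLSD1. Each siLSD1 library was above each siCTR library, and the log2 fold change was 0.23 (SE 0.10, adjusted p = 0.341 in edgeR). ERO1A, the oxidase that recharges P4HB, had 688, 744 and 730 reads across siCTR against 789, 913 and 1007 across siLSD1. The groups of ERO1A did not overlap either, and the log2 fold change was 0.32 (SE 0.13, adjusted p = 0.259 in edgeR). PDIA6 and PDIA4, further isomerases, had log2 fold changes of 0.18 and 0.15 without overlap of the groups, and PDIA3, the partner of CALR and CANX, had 0.09 with overlap. These 3 genes had adjusted p-values of 0.458 to 0.744 in edgeR. Gene copies of PDIA3 and HSP90B1 elsewhere in the genome may share reads with them, and how the counting treated such reads is not given in the sources used here.

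The ERAD genes, which recognise misfolded proteins and pass them to the proteasome, were higher in 4 and lower in 7 of 11 tested genes, with a median log2 fold change of -0.07. EDEM1, which trims mannose from misfolded glycoproteins and so marks them for degradation, had 898, 826 and 794 reads across siCTR against 682, 635 and 559 across siLSD1. Every siLSD1 library was below every siCTR library, and the log2 fold change was -0.43 (SE 0.13, adjusted p = 0.139 in edgeR). Its relatives EDEM2 and EDEM3 had log2 fold changes of -0.07 and 0.14 with overlapping groups. HERPUD1, a stress-induced organiser of the ERAD ligase, had 891, 1124 and 1092 reads across siCTR against 1194, 1172 and 1245 across siLSD1. After correction for depth these groups did not overlap, siCTR replicate 1 was the lowest, and the log2 fold change was 0.21 (SE 0.12, adjusted p = 0.447 in edgeR). SYVN1, the ubiquitin ligase of ERAD, and its partner SEL1L had log2 fold changes of -0.02 and -0.09. The remaining members were DERL1 (0.13), DERL2 (-0.22), the lectin OS9 (0.16), the extracting ATPase VCP (-0.13) and SELENOK (-0.12), with adjusted p-values of 0.491 to 0.791 in edgeR.

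Of the translocon, the channel through which new proteins enter the ER, SEC61A1 had a log2 fold change of 0.07, SEC61B of -0.26 and the associated protein SERP1 of 0.07, with overlapping groups and adjusted p-values of 0.445 to 0.824 in edgeR. WFS1, an ER membrane protein known from Wolfram syndrome, had 555, 529 and 512 reads across siCTR against 452, 370 and 385 across siLSD1. Its siLSD1 libraries all lay below the siCTR libraries, and the log2 fold change was -0.41 (SE 0.12, adjusted p = 0.148 in edgeR).

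**Figure D4:**
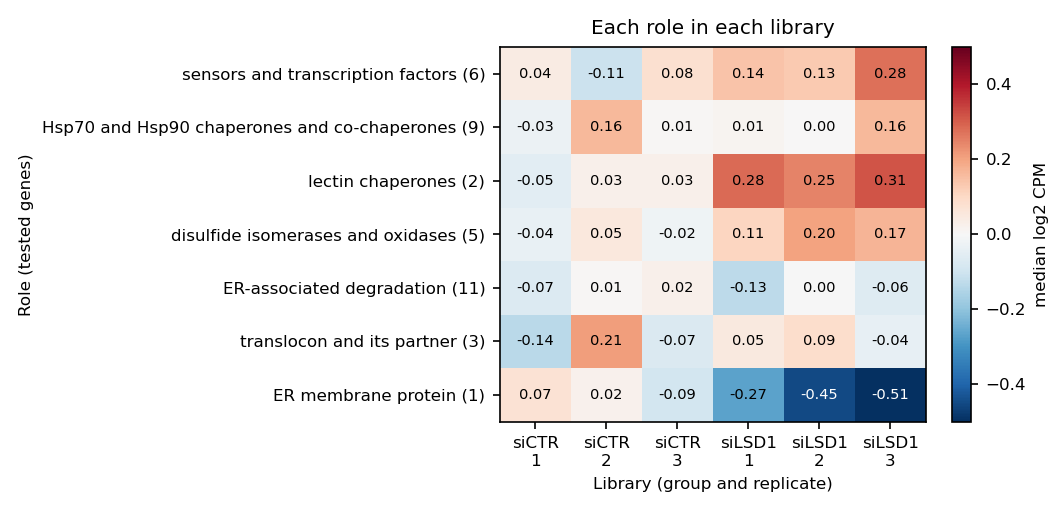
Median log2 CPM of each role (rows, tested genes in brackets) in each of the 6 libraries (columns), as the difference from the siCTR mean of each gene. The 2 lectin chaperones stood at 0.25 to 0.31 and the 5 disulfide isomerases and oxidases at 0.11 to 0.20 in the siLSD1 libraries, while the 9 Hsp70 and Hsp90 chaperones and co-chaperones stood at 0.16 both in siCTR replicate 2 and in siLSD1 replicate 3.

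By role, the median of every siLSD1 library lay above that of every siCTR library for the sensors and transcription factors, the lectin chaperones and the disulfide isomerases and oxidases, and below for WFS1, the single gene of its role. In siCTR the sensors and transcription factors had median differences of 0.04, -0.11 and 0.08 from the siCTR mean on the log2 scale, against 0.14, 0.13 and 0.28 in siLSD1. WFS1 had 0.07, 0.02 and -0.09 against -0.27, -0.45 and -0.51. In the siLSD1 libraries the lectin chaperones had 0.28, 0.25 and 0.31, and the disulfide isomerases and oxidases 0.11, 0.20 and 0.17. The corresponding siCTR values were -0.05, 0.03 and 0.03 for the lectins and -0.04, 0.05 and -0.02 for the isomerases and oxidases. The values of the Hsp70 and Hsp90 chaperones overlapped, with -0.03, 0.16 and 0.01 in siCTR and 0.01, 0.0036 and 0.16 in siLSD1, and those of the degradation factors and of the translocon genes overlapped too. For single genes, the groups did not overlap for 21.4% of all tested genes, and no such share was computed for medians of several genes. The roles were drawn up with earlier results of these data known, and the difference between the roles was not tested.

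Correction of each library for GC content and transcript length changed the calls. The 37 genes had a median GC content of 47.1%, against 48.3% over the genes with a value. With the correction, 6 of the 37 genes (16.2%) had an adjusted p under 0.05, against 8.26% of all genes tested in this way. CALR (log2 fold change 0.32, adjusted p = 0.016), CREB3L2 (0.31, adjusted p = 0.031) and ERO1A (0.30, adjusted p = 0.047) were higher in that edgeR fit. EDEM1 (-0.49, adjusted p = 0.022), WFS1 (-0.35, adjusted p = 0.028) and DNAJB11 (-0.34, adjusted p = 0.030) were lower in it. HSPA5 was at 0.13 (adjusted p = 0.382) and SDF2L1, at -0.16 without the correction, at 0.10.

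The log2 fold changes of the genes with an ER stress element in the promoter window lay between -0.16 (SDF2L1) and 0.28 (CANX). For the 10 tested genes with ERSE or ERSE-II the median was 0.12, with 6 above 0 and 2 (CALR and CANX) at an unadjusted p under 0.05, the threshold that 14% of all tested genes passed. The 25 tested genes with a window and neither motif had a median of 0.09, with 8 at that threshold. Of the genes whose matches are printed above, HSPA5, HSP90B1, XBP1, CRELD2, SERP1, HERPUD1 and SDF2L1 had an unadjusted p above 0.05.

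The PERK arm, the branch of the UPR that acts through translation and ATF4 and that shares its targets with amino acid and other stress responses, was followed in a list of 18 genes. Of the 17 tested, 13 were higher and 4 lower, the median log2 fold change was 0.19, and 6 were higher and 1 lower at an unadjusted p under 0.05, where 7.48% of all tested genes were higher and 6.55% lower. After adjustment in edgeR 0 of 17 were called, while DESeq2 called 1 and limma-voom 0. With the correction for GC content and length, edgeR called 5 of the 17, all higher (TRIB3, PPP1R15A, CHAC1, ATF4 and EIF2AK1, adjusted p 0.00059 to 0.031), where 8.26% of all genes were called. PPP1R15A, which directs the dephosphorylation of eIF2 alpha, had 309, 338 and 317 reads across siCTR against 571, 409 and 462 across siLSD1. The groups did not overlap, and its log2 fold change was 0.57 (SE 0.14, adjusted p = 0.062 in edgeR, 0.016 in DESeq2 and 0.032 in edgeR without a filter). TRIB3, a pseudokinase induced by ATF4, had 802, 830 and 758 reads across siCTR against 1275, 1090 and 935 across siLSD1, a log2 fold change of 0.46 (SE 0.13, adjusted p = 0.127 in edgeR, and 0.041 without siLSD1 replicate 3). CHAC1, a glutathione-degrading enzyme induced by ATF4, had 41, 49 and 36 reads across siCTR against 89, 64 and 61 across siLSD1, a log2 fold change of 0.76 (SE 0.24, adjusted p = 0.167 in edgeR).

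ATF4 itself had 2542, 3097 and 2638 reads across siCTR against 3572, 3147 and 3600 across siLSD1, without overlap, and a log2 fold change of 0.31 (SE 0.12, adjusted p = 0.239 in edgeR). ATF3, a stress-induced transcription factor, and EIF2AK1, the heme-regulated kinase of eIF2 alpha, had log2 fold changes of 0.35 and 0.33 without overlap, and ATF5, a relative of ATF4, had -0.49. The PERK gene EIF2AK3 (0.19, adjusted p = 0.526) and DDIT3, the CHOP transcription factor (0.07, adjusted p = 0.895), had overlapping groups in edgeR. DDIT3 had 81, 88 and 92 reads across siCTR against 97, 77 and 101 across siLSD1.

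Across the 7 companion lists together, 129 genes were tested, 14 were higher and 8 lower at an unadjusted p under 0.05 (17.1% in all, against 14% of all tested genes), 3 rose and 0 fell after adjustment in edgeR, where 1.44% of all tested genes were called, and the median log2 fold change was -0.02. GANAB, the catalytic subunit of glucosidase II, which trims glucose from the sugar chains that CALR and CANX bind, had 4764, 3466 and 4490 reads across siCTR against 9969, 8482 and 8419 across siLSD1. It rose 2.11-fold, with a log2 fold change of 1.08 (SE 0.13, adjusted p = 0.0018 in edgeR), and with 1 library left out the adjusted p was at most 0.013. PRKCSH, the other subunit of glucosidase II, had 2137, 2076 and 2023 reads across siCTR against 3538, 3009 and 2521 across siLSD1, without overlap, and a log2 fold change of 0.54 (SE 0.13, adjusted p = 0.068 in edgeR). PRKCSH was called by DESeq2 (adjusted p = 0.011), and by edgeR without a filter (0.023), with the correction for GC content and length (0.00022) and without siLSD1 replicate 3 (0.019). Of the 20 tested genes of N-glycan transfer and glycoprotein quality control, 3 (15%, against 14% of all tested genes) had an unadjusted p under 0.05, the third being MAGT1, a subunit of the oligosaccharyltransferase (-0.33), and the median was 0.01.

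ERLIN1, which with ERLIN2 forms an ER membrane complex that directs ERAD of inositol trisphosphate receptors, had 759, 814 and 784 reads across siCTR against 1126, 1076 and 1288 across siLSD1. It rose with a log2 fold change of 0.56 (SE 0.11, adjusted p = 0.028 in edgeR), and the call was lost (adjusted p 0.0596 to 0.142) when siCTR replicate 1 or 3 or any single siLSD1 library was left out. ERLIN2 had 668, 617 and 657 reads across siCTR against 934, 854 and 919 across siLSD1, a log2 fold change of 0.48 (SE 0.11, adjusted p = 0.054 in edgeR), and was called by DESeq2 (0.010), without a filter (0.047) and with the correction for GC content and length (0.0088). Of 19 other ERAD factors tested, 3 (15.8%, against the same 14%) had an unadjusted p under 0.05, the third being the glycanase NGLY1 (-0.29), and the median was 0.03. STC2, a secreted glycoprotein known as a target of the PERK arm, had 541, 416 and 476 reads across siCTR against 740, 614 and 906 across siLSD1. It rose with a log2 fold change of 0.65 (SE 0.15, adjusted p = 0.048 in edgeR), and the call was lost (adjusted p 0.075 to 0.159) without siCTR replicate 2 or 3 or any single siLSD1 library, and also under limma-voom (0.053) and without TMM factors (0.058). Of 13 tested genes of other UPR signalling and ER retrieval, the other at an unadjusted p under 0.05 was KDELR3, a receptor that returns ER proteins from the Golgi (-0.41).

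The remaining lists had no adjusted call in edgeR, DESeq2 or limma-voom. Of 22 tested genes of translocation and signal peptide cleavage, 19 were lower and 3 higher, with a median log2 fold change of -0.14. Over all 11844 tested genes, 6246 were lower. For several genes of the list, such as SEC61G, SSR3 and SRP14, siCTR replicate 2 had the most reads of all libraries. For others, such as SRPRA and TRAM1, it did not. The change of this list as a whole was not tested. In edgeR, 1 of the 22 had an unadjusted p under 0.05 (14% of all tested genes), SRPRA, a subunit of the signal recognition particle receptor (-0.36, adjusted p = 0.164). Of 26 other disulfide isomerases, prolyl isomerases and co-chaperones, 14 were higher and 12 lower, with a median of 0.04 and 5 at an unadjusted p under 0.05 (again against 14%), among them the prolyl isomerase FKBP9 (0.36), the thioredoxin-like TMX3 (0.37) and the J-domain protein DNAJB14 (-0.33). With the correction for GC content and length, where 8.26% of all genes were called, edgeR called SRPRA (adjusted p = 0.013) in the former list and FKBP10 (0.017), FKBP9 (0.019) and TMX3 (0.046) in the latter, of which FKBP10 is named here after its values were seen.

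**Figure D5:**
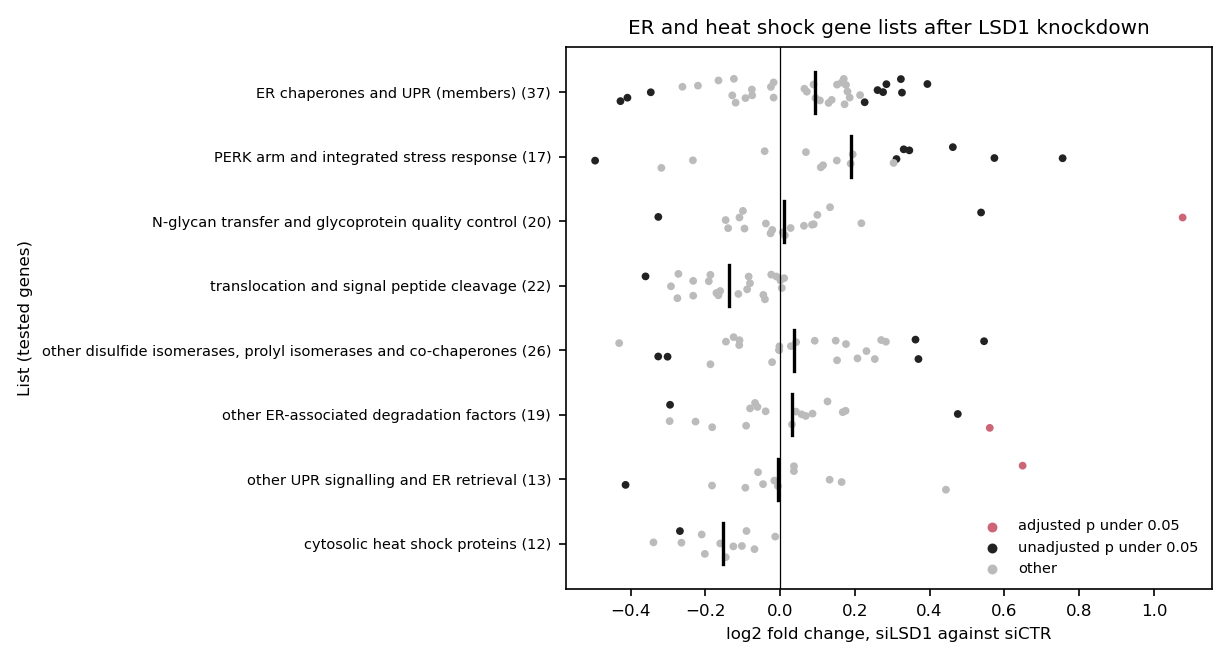
Log2 fold change (x axis, siLSD1 against siCTR, from edgeR) of every tested gene of the ER chaperone and UPR set and of the 7 companion lists (y axis, number tested in brackets), with a vertical bar at each median, red points for an adjusted p under 0.05 and black points for an unadjusted p under 0.05. The 3 red points are GANAB, ERLIN1 and STC2, and the medians run from -0.15 (cytosolic heat shock proteins) to 0.19 (PERK arm).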

How the data were processed

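U2OS libraries were grouped from their labels as siCTR (3) and siLSD1 (3). STAR was the authors' aligner. Their deposited table gives each gene's counts in the 6 libraries as whole, unscaled reads. The FPKM values deposited beside them divide reads by gene length and by the size of the library. The genome build, annotation and counter are not given in the sources used here. The 3 deposited tables of library pairs hold a second set of counts and served as an alternative. The authors' fold changes and p-values (a DESeq2 comparison), their list of called genes and their normalized values were not used.

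Counts were analysed with edgeR 4.0.16 under R 4.3.3, by its quasi-likelihood test on TMM-scaled libraries, with group as the only term. Its filterByExpr filter (minimum count 10) kept 11844 genes, over which the Benjamini-Hochberg adjustment was made. Intervals cover 95%. CPM values are TMM-scaled, and log2 CPM uses a prior count of 2. FPKM values were used for levels only. The biological coefficient of variation was 12.6%, and the depth was 12513511 to 13561344 reads, which the intervals and the floor of 3 counts reflect. Alternatives were DESeq2 1.42.0, limma-voom (limma 3.58.1), library size only, no filter, at least 1 CPM in 3 libraries, the replicate number as a block, each library left out, the second counting, and a correction for GC content and length (lowess, span 0.3, GENCODE release 44, known for 99.4% of tested genes). Tables and plots used Python 3.11.15 with pandas 2.3.3 and matplotlib 3.10.9.

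The genes, the companion lists and the roles were chosen with earlier results of these data known. Every one of the 41 genes is accounted for. Reads per library are given for those with an unadjusted p under 0.05 and for HSPA5, HSP90B1, XBP1, ERN1, ATF6, DNAJB9, HERPUD1 and SDF2L1. Of the companion lists, genes with an adjusted p under 0.05 are named, with up to 3 more per list by the smallest unadjusted p under 0.05 and, for the PERK arm, all at that threshold with EIF2AK3, ATF4, DDIT3, PPP1R15A and TRIB3. Promoter windows are from RefSeq. Copies of a gene, overlapping genes and strand could not be separated in the counts.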

Additional observations from a re-analysis of the deposited data

How the results depend on the processing

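Of 518 fold changes of the 37 genes under 14 alternatives, 498 kept their direction and 20 turned, in 9 genes whose log2 fold change was at most 0.16 in size and of which 0 had an unadjusted p under 0.05. With the GC and length correction XBP1 turned to 0.0177, SDF2L1 to 0.10, DNAJB9 to 0.0265, CRELD2 to 0.0160 and SYVN1 to 0.0058. With 1 library left out, the range was -0.0887 to 0.111 for XBP1, -0.197 to 0.0370 for HSP90B1, -0.308 to 0.0029 for SDF2L1, -0.124 to 0.0868 for DNAJB9, -0.0176 to 0.225 for MANF, -0.192 to 0.0357 for CRELD2, -0.0843 to 0.0756 for SYVN1, -0.157 to 0.0357 for EDEM2 and -0.308 to 0.0582 for SELENOK. The median of the 37 genes stayed between 0.07 and 0.12 in every alternative run. Adjusted calls among them were 0 under DESeq2, limma-voom, library size only, both filters, the second counting and each left-out library. At the unadjusted threshold, 1 to 9 were higher and 2 to 4 lower with 1 library left out.

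The GC and length correction called 582 genes higher and 390 lower (1486 and 1421 unadjusted), among them 3 of the 37 genes higher and 3 lower. It called 5 PERK arm genes, 3 of N-glycan transfer, 1 of translocation (3 unadjusted), 3 other isomerases and co-chaperones (10 unadjusted), 2 other ERAD factors (5 unadjusted) and 2 cytosolic heat shock genes (3 unadjusted), and 4 genes of other UPR signalling had an unadjusted p under 0.05. The fit with the replicate number as a block called 489 genes higher and 408 lower (7.57% of all, 1323 lower unadjusted), among them 1 of the 37 genes higher (CREB3L2) and 2 lower (EDEM1 and WFS1). This replicate block called 4 PERK arm genes, 2 of N-glycan transfer, 1 of translocation (5 unadjusted), 1 other isomerase or co-chaperone (8 unadjusted), 2 other ERAD factors and 1 cytosolic heat shock gene (3 unadjusted). Its adjusted p in edgeR was 0.0017 for PPP1R15A, 0.0067 for TRIB3, 0.035 for CHAC1, 0.00074 for PRKCSH and 0.0044 for ERLIN2, all higher. CEBPB of the PERK arm, named here after its values were seen, was lower (0.049), as was SRPRA (0.030). FKBP9 (0.038) was higher, as were the markers CDH1 (0.0030) and CDH5 (0.0071). Libraries with the same number correlated in their deviations at 0.33, 0.07 and 0.31, each best with its own number. The authors' tables of library pairs also set libraries side by side by number, but no label says what a number shares.

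DESeq2 called 210 genes higher and 113 lower, 1 PERK arm gene, 2 of N-glycan transfer and 2 other ERAD factors. Without a filter 102 genes were lower, with 1 PERK arm gene, 2 of N-glycan transfer and 2 other ERAD factors called, and 3 of translocation and 2 cytosolic heat shock genes unadjusted. The second counting gave 3 translocation and 2 cytosolic heat shock genes unadjusted, and the stricter filter 0 of the latter. Library size only and limma-voom each called 0 genes of other UPR signalling. With 1 library left out, 45 to 99 genes were higher and 7 to 37 lower after adjustment (607 to 924 and 454 to 889 unadjusted). Adjusted calls were then 0 to 1 in the PERK arm, 1 to 2 in N-glycan transfer, 0 to 1 among other ERAD factors and 0 to 1 in other UPR signalling. Unadjusted calls were 1 to 5 in translocation, 1 to 6 among other isomerases and co-chaperones, 1 to 2 in other UPR signalling and 0 to 3 among cytosolic heat shock genes. The cause of these changes was not tested. In edgeR with group as the only term and no correction, log2 differences as large as -0.43 (EDEM1) among the 37 genes were not called after adjustment. EDEM1 was called by edgeR with the GC and length correction (adjusted p = 0.022) and with the replicate block (adjusted p = 0.012).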

Other observations

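The cytosolic and mitochondrial heat shock proteins, which fold proteins outside the ER and belong to a separate stress response, were followed as a list of 15 genes. All 12 that were tested had a log2 fold change below 0 in siLSD1, with a median of -0.15, where 6246 of all 11844 tested genes were lower. The change of this list as a whole was not tested. Of the 12 genes, 0 were called after adjustment in edgeR, DESeq2 or limma-voom, with 1 at an unadjusted p under 0.05 in each (14% of all tested genes in edgeR). With the correction for GC content and length, edgeR called 2 of the 12 lower, HSPH1 (adjusted p = 0.039) and HSPA4L (0.049), where 8.26% of all genes were called, and HSPA4L is named here after its values were seen. HSPH1, an exchange factor of the cytosolic Hsp70, was the gene at that threshold, with 5462, 6370 and 6124 reads across siCTR against 4403, 4841 and 5706 across siLSD1, overlapping groups and a log2 fold change of -0.27 (SE 0.12, adjusted p = 0.349 in edgeR). HSF1 and HSPA1A had no row and were not analysed here, and HSPA1B had at most 1 read in a library. The annotation and the handling of reads with several matches are not given in the sources used here, so this count does not show that HSPA1B is silent.

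VWF, an endothelial marker, had 103, 63 and 89 reads across siCTR against 152, 161 and 155 across siLSD1, and rose with a log2 fold change of 0.87 (SE 0.19, adjusted p = 0.042 in edgeR), a call that was lost without siCTR replicate 2 or 3, without any single siLSD1 library (adjusted p 0.0728 to 0.181) and without TMM factors (0.0538). CDH5, the Cadherin-5 gene, had 8, 4 and 11 reads across siCTR against 28, 16 and 27 across siLSD1, without overlap (log2 fold change 1.6, adjusted p = 0.083 in edgeR, and 0.030 with the correction for GC content and length).

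The tested ER chaperone and UPR genes had a median within-group SD of 0.14 on the log2 scale, against 0.18 over all tested genes. The second counting gave 1.07 to 1.21 times the reads of the first for these genes.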
